A study of Mus musculus with 2 samples.

Results

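The interleukin-1 family and its receptors were followed through single-cell RNA sequencing of mouse pancreatic tumours. The set held 10 of the 32285 genes in the count tables, chosen by their symbols: the ligands Il1a, Il1b, Il18 and Il33, the antagonist Il1rn, the decoy receptor Il1r2, the signalling receptors Il1r1, Il18r1 and Il1rl1, and the shared co-receptor Il1rap. KPC cells, a mouse pancreatic cancer line, had been injected into the pancreas of mice after transduction with a control hairpin vector (KPC-shV) or with a hairpin against Zeb1 (KPC-shZEB1). Each group was 1 tumour sample (n = 1 in the study's methods) and 1 library. The labels name an orthotopic allograft and neither the strain, sex and age of the host mice nor a drug treatment, although the study describes these tumours as taken from gemcitabine-treated mice. The hairpin was carried by the injected cells alone, so the cells of the host carried none. Host, tumour, library and hairpin cannot be told apart. No test between the groups was therefore possible, and all intervals below are 95% intervals for counting error only.

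After filtering, 11398 cells with 101201508 UMIs (unique molecular identifiers, 1 per captured transcript) remained in the KPC-shV library and 12104 cells with 118943000 UMIs in the KPC-shZEB1 library, with medians of 3720 and 4252 UMIs per cell. The libraries shared 36 cell barcodes among the kept cells. Zeb1, the target of the hairpin, was no lower in tumour-like cells under the KPC-shZEB1 label. It stood at 129 CPM (UMIs of a gene per 1000000 UMIs of the class) in KPC-shV and 156 CPM in KPC-shZEB1, a ratio of 1.21 (1.15 to 1.27). The groups are therefore named below by their labels only, and every ratio has the KPC-shV value as its denominator. The cells fell into 9 classes with at least 50 cells in each library. Granulocyte-like cells were the most numerous, with 6865 cells (60.2%) in KPC-shV and 4330 cells (35.8%) in KPC-shZEB1, followed by monocyte-macrophage-like cells with 1638 and 2538 cells. The summed level of the 8 granulocyte markers was 36611 and 25143 CPM in the granulocyte-like cells. Granulocyte transcripts were also counted in cells of other classes. Free RNA, doublets and misassigned cells were not told apart as their source. The main levels are therefore set beside an estimate of the level that free (background) RNA alone would give in that class. This estimate was scaled from the kept cells. No such level was estimated for the other pathway genes.

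Interleukin-1 alpha and beta are inflammatory cytokines of innate immune cells. Both bind the receptor encoded by Il1r1, which then recruits the Il1rap protein and signals through MyD88, IRAK kinases and TRAF6 to NF-kB. The antagonist encoded by Il1rn occupies the same receptor without signalling, and the Il1r2 protein captures the ligands but lacks the signalling domain. Interleukin-18 acts on T and NK cells through Il18r1, and interleukin-33, a nuclear protein of stromal and epithelial cells that is released on damage, acts through Il1rl1 (ST2) together with Il1rap. In pancreatic tumours interleukin-1 is best known for driving an inflammatory state of fibroblasts.

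The genes lie in clusters in the mouse genome (GRCm38). On chromosome 1 the plus strand holds Il1r2 (chr1:40074079-40125231), Il1r1 (chr1:40225080-40317257), Il1rl1 (chr1:40429570-40465415) and Il18r1 (chr1:40465552-40500854), and only 136 bases separate the end of Il1rl1 from the start of Il18r1. On chromosome 2 the minus strand holds Il1a (chr2:129299610-129309972) and Il1b (chr2:129364570-129371139), 54597 bases apart, whereas Il1rn lies elsewhere on the plus strand (chr2:24336853-24351494). Il1rap (chr16:26581704-26730117), Il18 (chr9:50554827-50581840) and Il33 (chr19:29925114-29960718) stand alone on the plus strand of their chromosomes. The promoters of Il1a, Il1b and Il1rn are shown because these genes had their highest levels in the same classes, granulocyte-like and then monocyte-macrophage-like cells. Il1rap had the same leading classes by mean level, and its window is not shown. Each is the 300-base RefSeq window from 250 bases before to 50 bases after the start site, on the strand of the gene (chr2:129309923-129310222 minus, chr2:129371090-129371389 minus and chr2:24336610-24336909 plus, GRCm38.p6). Capitals mark matches to the motif letters.
Il1a: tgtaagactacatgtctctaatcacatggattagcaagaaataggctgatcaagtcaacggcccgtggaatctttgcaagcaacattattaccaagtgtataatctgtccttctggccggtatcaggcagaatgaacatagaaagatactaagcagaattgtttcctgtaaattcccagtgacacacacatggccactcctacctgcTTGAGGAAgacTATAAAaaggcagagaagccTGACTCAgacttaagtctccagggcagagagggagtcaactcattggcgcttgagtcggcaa
Il1b: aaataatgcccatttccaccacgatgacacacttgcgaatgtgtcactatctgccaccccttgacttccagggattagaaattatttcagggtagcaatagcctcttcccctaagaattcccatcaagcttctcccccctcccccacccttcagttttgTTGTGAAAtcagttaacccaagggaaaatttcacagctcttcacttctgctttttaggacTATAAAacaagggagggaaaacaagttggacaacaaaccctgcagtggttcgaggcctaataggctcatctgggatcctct
Il1rn: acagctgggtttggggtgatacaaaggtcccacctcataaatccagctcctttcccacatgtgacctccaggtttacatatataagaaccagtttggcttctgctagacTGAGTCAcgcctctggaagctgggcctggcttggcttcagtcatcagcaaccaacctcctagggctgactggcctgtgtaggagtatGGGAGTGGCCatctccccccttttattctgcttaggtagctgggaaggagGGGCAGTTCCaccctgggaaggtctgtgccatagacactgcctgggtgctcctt
The motifs searched on both strands were NF-kB (GGG, then 5 bases of any kind, then CC), C/EBP (TTNNGNAA), AP-1 (TGANTCA), PU.1 (GAGGAAGT) and the TATA box (TATAAA), and no match in these windows overlapped another motif. Both agonist promoters held a TATA box, 26 bases before the start site in Il1a and 25 bases before it in Il1b, a match found in 13.6% of the 32817 mouse promoter windows. Both also held a C/EBP match, TTGAGGAA in Il1a and TTGTGAAA in Il1b, as did 40.7% of all windows. The Il1rn window shown, which holds the start of the gene, had no TATA box. It carried an AP-1 match (TGAGTCA, in 7.81% of all windows) and a pair of NF-kB matches, GGGAGTGGCC before the start site and GGGCAGTTCC across it, of a kind that 50.8% of all windows hold. Il1a had its AP-1 match, TGACTCA, 5 bases before the start site. Il1rn had further RefSeq windows, not shown, with start sites at chr2:24345291 and chr2:24345371. Both held an NF-kB match (GGGTTTTTCC) and C/EBP matches such as TTGGGGAA, and the later window held a TATA box match on the opposite strand. The contrast with Il1a and Il1b thus covers the window shown only. These are matches of letters only.

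The 10 genes did not all peak in the same class, and the classes did not divide them by role. Il1a, Il1b, Il1rn, Il1r2 and Il1rap had their highest level in granulocyte-like cells, Il18 in monocyte-macrophage-like cells, Il1r1 and Il33 in fibroblast-like cells, and Il18r1 and Il1rl1 in lymphocytes. Along the order of the classes, the granulocyte-like level stood above the next class in both libraries for each of the first 5 genes. For Il1b the order was granulocyte-like, monocyte-macrophage-like and dendritic-like cells, and the ranges of the other 6 classes overlapped their neighbours'. For Il1r1 the fibroblast-like level stood clear of endothelial-like and T-like cells, which overlapped, and for Il18r1 T-like and NK-like cells overlapped.

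**Figure D1:**
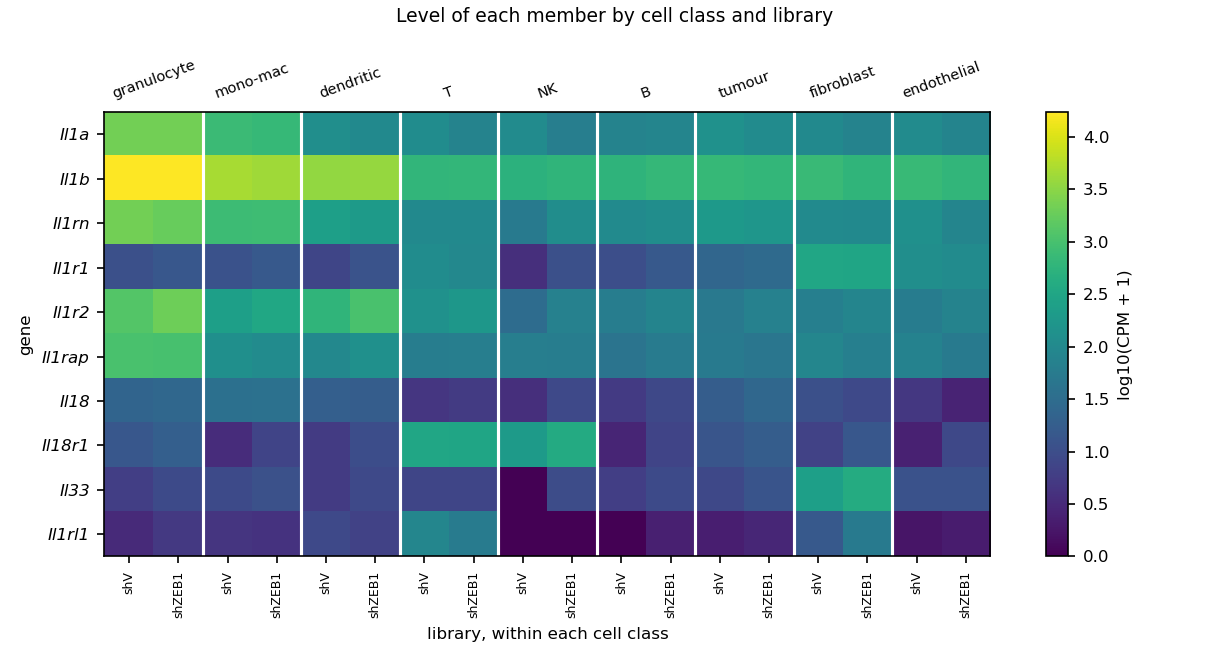
Level of each gene in the 9 cell classes and both libraries, as log10 of CPM + 1 (colour), with 1 row per gene and 1 column per library within a class. Il1b was brightest in the granulocyte column (16829.9 and 17124 CPM), and the rows of Il18r1, Il33 and Il1rl1 are brightest outside the myeloid classes.

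Il1b, the main secreted agonist, was the dominant transcript of the set in granulocyte-like cells. It reached 16829.9 CPM (16777 to 16883) in KPC-shV and 17124 CPM (17054 to 17194) in KPC-shZEB1, a ratio of 1.02 (1.01 to 1.02). At least 1 Il1b UMI was seen in 98.7% and 99.2% of these cells. B-like cells, which are not known as a source of Il1b, had a UMI in 84.4% and 87.2% of cells, at medians of 3732 and 3417.5 UMIs per cell against 3147 and 2907 in the granulocyte-like cells. When each cell was thinned to 1000 UMIs the shares were 95.8% and 97.2% in granulocyte-like cells and 42.9% and 46.7% in B-like cells. A single Il1b UMI was thus no mark of expression in these tumours.

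The 2 libraries gave nearly the same Il1b level within granulocyte-like cells but not in the tumour as a whole. Over all kept cells Il1b stood at 5324 CPM in KPC-shV and 3906 CPM in KPC-shZEB1, a ratio of 0.73 (0.73 to 0.74). Granulocyte-like cells supplied 71.4% of all Il1b UMIs in KPC-shV and 49.5% in KPC-shZEB1, while the share of monocyte-macrophage-like cells was 20.9% and 35.7%. Il1a went the same way, with 67.4% and 45.6% of its UMIs in granulocyte-like cells, and so did Il1rn, with 64.2% and 36.6%. For Il1rn the monocyte-macrophage-like cells were the larger source in KPC-shZEB1, with 48.7% of the UMIs. Il1rap, 77.8% and 60.1% of whose UMIs came from granulocyte-like cells, was lower over all kept cells of KPC-shZEB1 at 187 CPM against 297 CPM (ratio 0.63, 0.62 to 0.64). Il1r2, also highest in granulocyte-like cells, went the other way. It had 38709 of the 101201508 UMIs of all kept cells in KPC-shV and 51288 of 118943000 in KPC-shZEB1. The part of the share of granulocyte-like cells in these whole-tumour values was not tested.

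Granulocyte-like cells were not uniform in their Il1b level. The 10 genes and the pathway lists were left out of the genes used for clustering, so the clusters below were not drawn by them. The cluster led by S100a9, S100a8 and G0s2 held 24818 and 21674 CPM of Il1b in KPC-shV and KPC-shZEB1, and the cluster led by G0s2, Acod1 and Hdc held 24237 and 23028 CPM. Levels were intermediate in the interferon-response cluster led by Slfn4, Rsad2 and Acod1, with 18754 and 17947 CPM, and in the Mmp9, Gm14023 and Il1a cluster, with 16821 and 15251 CPM. The Cstdc4, Cxcl3 and Dach1 cluster followed with 11106 and 9522 CPM. The lowest level was in the Retnlg, S100a8 and Mreg cluster, with 4369.8 and 4316 CPM. Between the highest and lowest clusters the level thus differed far more than between the libraries. Within every one of the 6 clusters Il1b was lower in the library labelled KPC-shZEB1, with ratios from 0.86 to 0.99, and with the clusters weighted alike in both libraries the ratio was 0.91 in place of 1.02. The clusters were unevenly filled: the Retnlg cluster held 1002 of the 6865 granulocyte-like cells of KPC-shV and 291 of the 4330 cells of KPC-shZEB1.

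**Figure D2:**
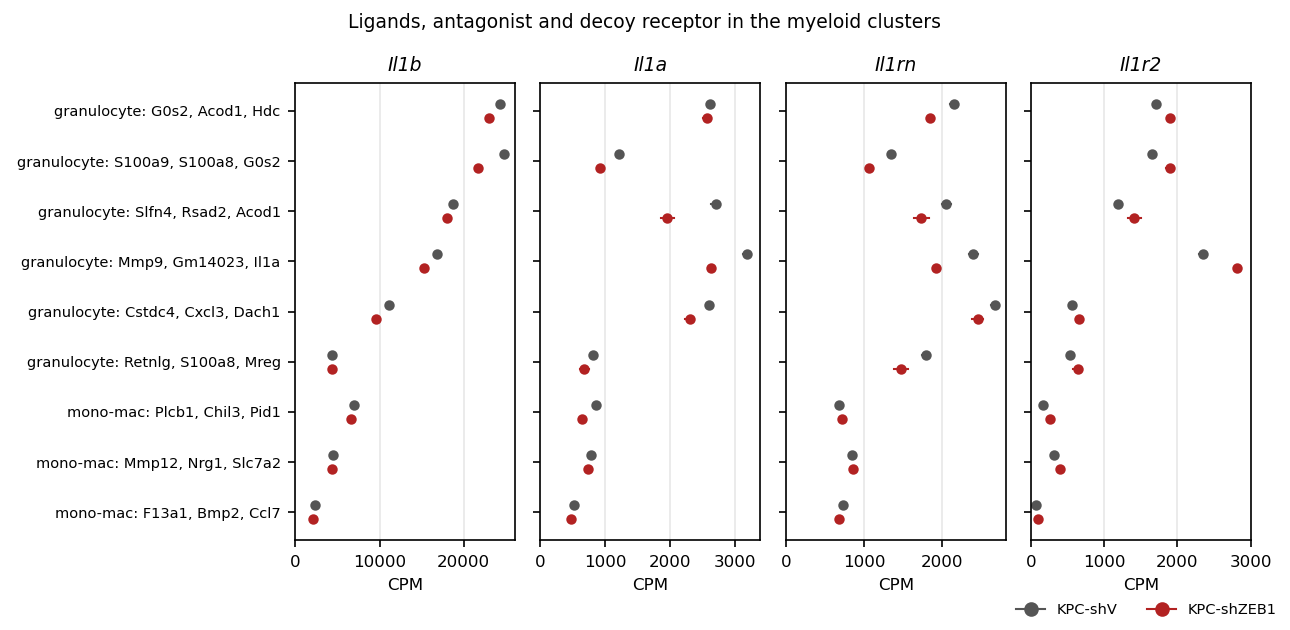
Il1b, Il1a, Il1rn and Il1r2 (panels, CPM on a linear axis) in the 6 granulocyte-like and 3 monocyte-macrophage-like clusters, each named by its leading genes, with 1 point per library and bars for the 95% counting interval. In all 6 granulocyte-like clusters the KPC-shZEB1 point lies below the KPC-shV point for Il1b, Il1a and Il1rn and above it for Il1r2.

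Il1a, the agonist that stays cell-associated, had its own pattern among these clusters. It was highest in the Mmp9, Gm14023 and Il1a cluster, at 3183 and 2622 CPM, and at 1210 and 909 CPM in the S100a9, S100a8 and G0s2 cluster, 1 of the pair with the most Il1b. Over all granulocyte-like cells Il1a stood at 2186 and 2129 CPM (ratio 0.97, 0.96 to 0.99). Within the clusters it was lower in KPC-shZEB1 in 6 of 6, with ratios from 0.72 to 0.98.

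In granulocyte-like cells the antagonist Il1rn was lower in the library labelled KPC-shZEB1. It stood at 2111 CPM (2092 to 2129.5) in KPC-shV and 1788 CPM (1766 to 1811) in KPC-shZEB1, a ratio of 0.85 (0.83 to 0.86). The ratio lay between 0.79 and 0.92 in the 6 clusters and was again 0.85 at an equal mix. Per 100 Il1b UMIs of the same cells, 12.5 Il1rn UMIs were counted in KPC-shV and 10.4 in KPC-shZEB1. That balance differed widely between clusters: the Retnlg cluster, lowest in Il1b, carried 41.0 and 34.1 Il1rn UMIs per 100 of Il1b, whereas the S100a9 cluster carried 5.43 and 4.89. Of the granulocyte-like cells with an Il1b UMI, 92.6% and 90.1% also held an Il1rn UMI, and of the few without one 85.4% and 91.4% did.

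Il1r2, the decoy receptor, went the opposite way in granulocyte-like cells. It reached 1264 CPM (1250 to 1279) in KPC-shV and 1971 CPM (1947 to 1995) in KPC-shZEB1, a ratio of 1.56 (1.53 to 1.59). Of all genes with at least 30 UMIs in granulocyte-like cells, 27.4% had a ratio of at least 1.5 or at most its inverse, and the direction was uneven, with 24.0% higher and 3.44% lower in KPC-shZEB1. 3 of the 10 members passed the same size: Il1r2, and at levels under 10 CPM Il33 and Il1rl1. The level of Il1r2 also differed between clusters. It was highest in the Mmp9 cluster, at 2343 and 2815 CPM, and this cluster held 840 granulocyte-like cells in KPC-shV and 1406 in KPC-shZEB1. Within the 6 clusters the ratio ranged from 1.11 to 1.20, and at an equal mix it was 1.17, inside 1.5-fold. The median gene of the class above 50 CPM was also higher by 0.07 on the log2 scale, and relative to it the Il1r2 ratio was 1.49. The ratio was 1.498 when each library was clustered on its own.

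The co-receptor Il1rap, needed by both interleukin-1 and interleukin-33 receptors, was likewise a granulocyte transcript. It stood at 1022 and 998 CPM there (ratio 0.98, 0.96 to 1.00) and at 126 and 111 CPM in monocyte-macrophage-like cells, against 45.2 and 36.2 CPM of background RNA there. Il1r1, with which it pairs, was at 9.76 and 12.9 CPM in granulocyte-like cells, the level that background RNA alone would give (9.81 and 12.4 CPM). Granulocyte-like cells of both tumours thus held the transcripts of the agonists, the antagonist, the decoy and the co-receptor, with Il1r1 at background.

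In monocyte-macrophage-like cells, as in the granulocyte-like clusters, Il1b was slightly lower and Il1r2 higher in KPC-shZEB1. Il1b stood at 4739 CPM (4711 to 4766) and 4239 CPM (4219 to 4260), a ratio of 0.89 (0.89 to 0.90). Il1rn stood at 794 and 816 CPM (1.03, 1.01 to 1.05), so that 16.8 and 19.2 Il1rn UMIs were counted per 100 of Il1b. Il1r2 was at 249 and 332 CPM (1.33, 1.29 to 1.38) and higher in 3 of 3 clusters. The monocyte cluster led by Plcb1, Chil3 and Pid1 had the most Il1b, at 7028 and 6584 CPM, and the macrophage cluster led by F13a1, Bmp2 and Ccl7 the least, at 2355 and 2127 CPM. Of the 10 members 1 was past 1.5-fold in this class, against 12.6% of all genes (10.3% higher and 2.3% lower): Il18r1, at 2.40 and 6.42 CPM, where background RNA alone would give 2.51 and 6.56 CPM.

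Interleukin-18, which like interleukin-1 beta is made as a precursor cut by caspase-1, was sparse. Il18 was highest in monocyte-macrophage-like cells at 36.1 CPM (33.7 to 38.6) and 36.6 CPM (34.7 to 38.5), a ratio of 1.01 (0.93 to 1.10), and within them in the F13a1 cluster at 60.3 and 67.2 CPM. Among granulocyte-like cells it stood out in the interferon-response Slfn4 cluster, at 82.8 and 124 CPM against 7.54 to 41.4 CPM in the other 5 granulocyte-like clusters. Tumour-like cells, which should carry the hairpin, held 17.0 CPM (15.3 to 18.9) in KPC-shV and 25.0 CPM (23.0 to 27.3) in KPC-shZEB1, a ratio of 1.47 (1.28 to 1.69). That ratio was 0.98 when each library was clustered on its own and between 1.46 and 1.56 in the other alternatives run.

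Tumour-like cells gave little else of this family. Il1b there was 687 and 626 CPM, under the 771 and 703 CPM that background RNA would give. Il1rn was above it, at 195 and 164 CPM against 107 and 99.2 CPM (ratio 0.84, 0.80 to 0.88), and so was Il1r1, at 24.1 and 27.8 CPM against 8.96 and 10.3 CPM. Il33 was the 1 member past 1.5-fold, at 7.44 and 11.6 CPM (1.56, 1.27 to 1.92), against 14.1% of all genes (10.6% higher and 3.48% lower), and the ratio was 1.29 once background RNA was subtracted. In T-like, NK-like, B-like, fibroblast-like and endothelial-like cells Il1b lay between 522 and 733 CPM, against 586 to 1001 CPM of background RNA.

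Dendritic-like cells, which present antigen to T cells, were rich in the decoy receptor. Il1r2 stood at 580.1 CPM (540.02 to 622) in KPC-shV and 1054 CPM (1025 to 1085) in KPC-shZEB1, a ratio of 1.82 (1.68 to 1.96), with 72.4 and 74.5 CPM of background RNA. The difference lay in the cluster led by Ccl17, Htr7 and Pkib, with 753 and 1399 CPM (1.86, 1.72 to 2.02). The mature cluster led by Ccr7, Ccl22 and Adgrg6 held 192 and 223 CPM (1.16, 0.90 to 1.51). The KPC-shV value came from 92 cells, and 5 of them held 40.5% of its UMIs, whereas in KPC-shZEB1 the top 5 of 291 cells held 12.4%. Il1b was equal in both, at 3586 and 3665 CPM (1.02, 0.99 to 1.06). 4 of the 10 members were past 1.5-fold, against 18.0% of all genes (11.7% higher and 6.28% lower), and the other 3 (Il1r1, Il18r1 and Il33) had 40 to 59 UMIs over both libraries and a level whose interval reached background RNA in at least 1 library.

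Among T-like cells Il1r1, Il1rl1 and Il1r2 peaked in different clusters, whereas Il18r1 was spread over several. Over the class, background RNA would give 9.31 and 10.4 CPM of Il1r1, 2.48 and 6.18 CPM of Il18r1, 1.04 and 2.35 CPM of Il1rl1 and 57.6 and 78.5 CPM of Il1r2. Il1r1 stood at 1525 CPM (1349.8 to 1716) in KPC-shV and 1818 CPM (1673 to 1973) in KPC-shZEB1 in the gamma-delta T-like cluster led by Il23r, Il17a and Zbtb16, and at 6.54 and 11.5 CPM in CD8 T-like cells. Il1rl1 stood at 588 and 503 CPM in regulatory T-like cells (0.86, 0.71 to 1.04), and at 56.1 and 25.7 CPM in CD4 T-like cells. Of T-like cells with a UMI of Foxp3, the regulatory T cell factor, 47.4% and 52.0% also held an Il1rl1 UMI, against 9.54% and 5.51% of those without one. Il1r2 was highest in a CD4 T-like cluster led by Ccl1, Penk and Cd4, at 698 and 771 CPM (1.11, 0.92 to 1.33). Il18r1 stood at 995 and 1267 CPM in the CD4 T-like cluster led by Il21, 931 and 904 CPM in gamma-delta T-like cells, and 140 and 144 CPM in CD8 T-like cells.

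**Figure D3:**
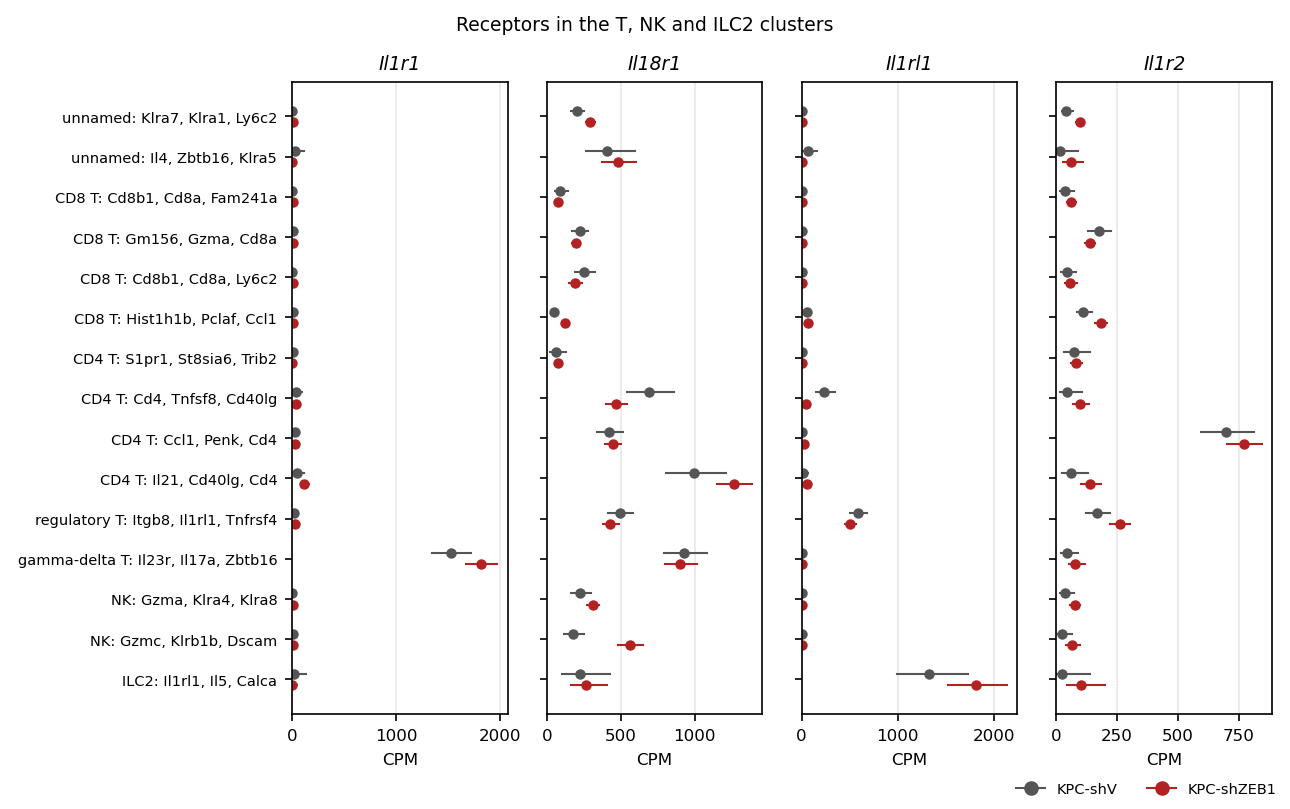
Il1r1, Il18r1, Il1rl1 and Il1r2 (panels, CPM on a linear axis) in each cluster of T-like, NK-like and ILC2-like cells, named by class and leading genes, with 1 point per library and bars for the 95% counting interval. Il1r1 peaks in the gamma-delta T-like cluster (1525 and 1818 CPM) and Il1rl1 in the ILC2-like and regulatory T-like clusters.

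Over the T-like class, Il18r1 was 321 CPM (299.6 to 343) and 310 CPM (298 to 323), a ratio of 0.97 (0.89 to 1.05). Il1rl1 was lower in the library labelled KPC-shZEB1, at 85.6 CPM (74.9 to 97.3) against 56.9 CPM (51.7 to 62.4), a ratio of 0.66 (0.57 to 0.78). It was the 1 member of 10 past 1.5-fold, against 12.9% of all genes (9.37% higher and 3.58% lower). With the T-like clusters weighted alike the ratio was 0.82, inside 1.5-fold, and of the 3 clusters with at least 30 Il1rl1 UMIs it was lower in 2. The widest gap was in the CD4 T-like cluster led by Cd4, Tnfsf8 and Cd40lg, at 236 and 46.9 CPM, from 26 and 18 UMIs. Il1r1 gave 0.82 (0.72 to 0.94) over the class, 1.23 at an equal mix of clusters and 1.61 with no doublets removed.

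NK-like cells had a higher level of the interleukin-18 receptor in the library labelled KPC-shZEB1. Il18r1 stood at 205 CPM (161 to 257) in 54 cells of KPC-shV and 387 CPM (349.9 to 427) in 171 cells of KPC-shZEB1, a ratio of 1.89 (1.47 to 2.45), with 2.22 and 6.11 CPM of background RNA. In the cluster led by Gzma, Klra4 and Klra8 the levels were 226 and 310 CPM (1.37, 0.99 to 1.92), and in the cluster led by Gzmc, Klrb1b and Dscam 178 and 562 CPM (3.16, 2.12 to 4.85). Il1rl1 had a UMI in 0 of 54 and 0 of 171 NK-like cells, which allows shares of up to 5.56% and 1.75% of cells with a UMI and sets no limit on cells that express the gene. 4 of the 6 members with at least 30 UMIs were past 1.5-fold in this small class, against 20.5% of all genes (12.5% higher and 7.99% lower). The levels of the other 3 (Il1a, Il1rn and Il1r2) were not above background RNA in both libraries, and the Il1rn ratio of 2.15 was 0.995 when each library was clustered on its own.

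Few cells held the most Il1rl1. ILC2-like cells, innate lymphocytes that answer interleukin-33, had 1321 and 1812 CPM from 7 and 18 cells (1.37, 0.99 to 1.92), or 53 and 143 UMIs. Mast-like cells had 1183 and 628 CPM from 2 and 16 cells, or 9 and 57 UMIs. These cells held 7.57% and 9.33% (ILC2-like) of all Il1rl1 UMIs, the T-like cells 33.1% and 28.9%, and the fibroblast-like cells 22.3% and 37.3%.

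Fibroblast-like cells were the source of Il33 and the main site of Il1r1. Il33 stood at 242 CPM (233 to 252) in KPC-shV and 404 CPM (392 to 416) in KPC-shZEB1, a ratio of 1.67 (1.59 to 1.75), against 5.48 and 8.36 CPM of background RNA. They supplied 71.8% and 75.0% of all Il33 UMIs. An Il33 UMI was seen in 73.7% and 81.5% of these cells, at medians of 29139 and 28137.5 UMIs per cell, and in 11.4% and 17.2% of tumour-like cells at medians of 18647 and 20545 UMIs. Il1r1 stood at 321 CPM (311 to 332) and 304 CPM (293 to 314), a ratio of 0.95 (0.90 to 0.99), and was seen in 89.5% and 90.7% of the cells, against 27.4% and 30.9% of tumour-like cells. Of fibroblast-like cells with an Il33 UMI, 95.1% and 92.2% also held an Il1r1 UMI, against 73.7% and 84.3% of those without one, and in KPC-shZEB1 the intervals overlapped (88.6% to 94.9% and 73.6% to 91.9%).

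The Il33 difference was uneven among fibroblast-like clusters. The highest level was in the cluster led by Cxcl13, Lmcd1 and Chrm3, at 628 and 799.9 CPM (1.27, 1.15 to 1.42), and this cluster held 29 and 75 cells. The widest was in the dividing cells led by Cenpf, Top2a and Cenpe, at 161 and 432 CPM (2.68, 2.18 to 3.31). In the cluster led by Itgbl1, Pdlim3 and Eln the direction was the opposite, at 226 and 151 CPM (0.67, 0.49 to 0.89). Il33 was higher in KPC-shZEB1 in 6 of 10 clusters, and with the clusters weighted alike the ratio was 1.31, inside 1.5-fold.

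Il1rl1, the receptor for interleukin-33, had the widest ratio among the members above background in fibroblast-like cells. It stood at 14.3 CPM (12.1 to 16.7) in KPC-shV and 53.1 CPM (48.8 to 57.6) in KPC-shZEB1, a ratio of 3.72 (3.11 to 4.46), against 1.04 and 2.21 CPM of background RNA. The UMIs lay in few cells: 7.76% and 17.7% of the cells held one, against 2.22% and 3.64% of tumour-like cells, and the top 5 cells held 72.4% and 45.8% of the UMIs. Most came from 1 cluster led by Il1rl1, 8030451A03Rik and Serpinb2, with 143 and 163 CPM (1.14, 0.91 to 1.44), which held 17 cells in KPC-shV and 62 in KPC-shZEB1. In each of the 5 clusters with at least 30 UMIs the level was higher in KPC-shZEB1. The ratio was 1.87 at an equal mix of clusters and 6.75 without the 1% of cells richest in Il1rl1. Il18r1 was also higher, at 5.86 and 13.3 CPM (2.26, 1.67 to 3.09), with 60.9% and 58.0% of its UMIs in 5 cells. 3 of the 10 members were past 1.5-fold in this class, against 13.4% of all genes (7.04% higher and 6.32% lower). Markers of monocytes and macrophages moved the same way in these cells: their 11 markers summed to 787 CPM in KPC-shV and 1977 CPM in KPC-shZEB1, while the 8 granulocyte markers summed to 1511 and 675 CPM. The part of either marker group in these ratios was not tested.

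**Figure D4:**
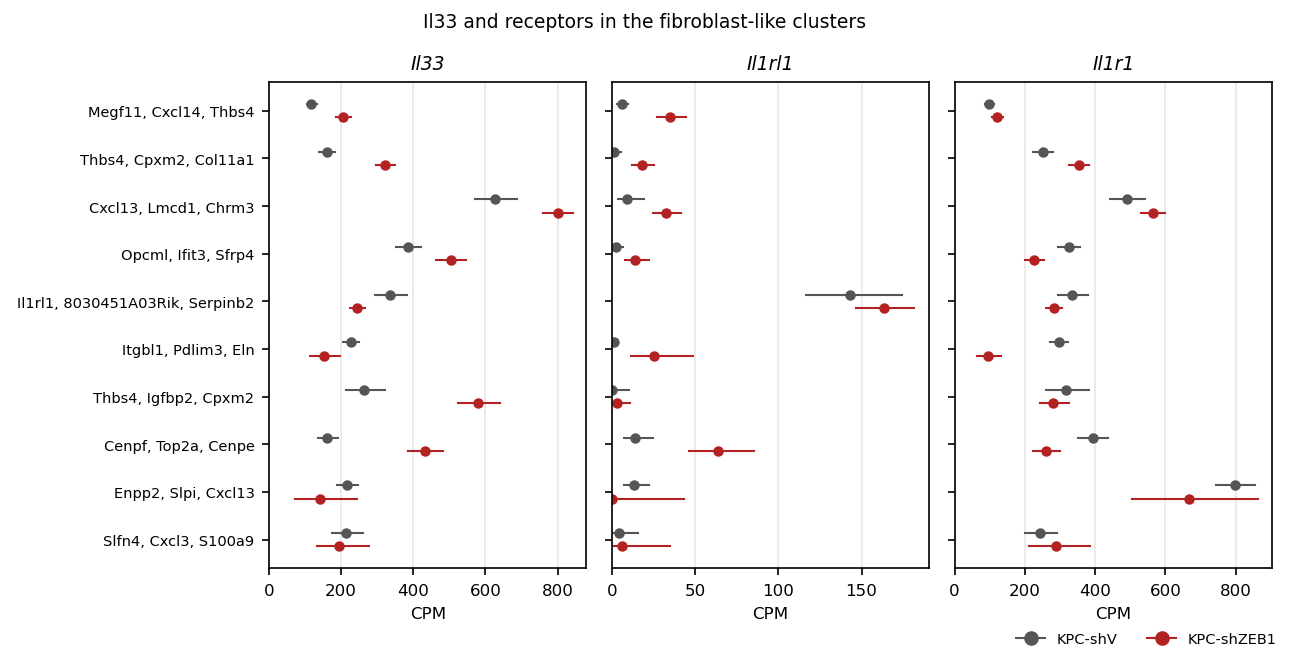
Il33, Il1rl1 and Il1r1 (panels, CPM on a linear axis) in the 10 fibroblast-like clusters, named by leading genes, with 1 point per library and bars for the 95% counting interval. Il1rl1 is concentrated in the cluster it leads (143 and 163 CPM), whereas Il33 and Il1r1 are spread over all clusters.

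Endothelial-like cells held Il1r1 at 124 and 109 CPM (0.88, 0.74 to 1.05), well above the 11.6 and 8.57 CPM of background RNA. Of the 7 members with at least 30 UMIs, 1 was past 1.5-fold in this class, Il1rn at 132 and 82.8 CPM (0.63), where background RNA would give 139.6 and 82.6 CPM, against 17.8% of all genes (10.6% higher and 7.24% lower). B-like cells had 3 of 9 members past 1.5-fold (Il18, Il18r1 and Il33) with 30 to 42 UMIs each over both libraries and levels not above background RNA in both, against 17.3% of all genes (13.4% higher and 3.91% lower). An unnamed cluster led by Cntn5 and Prg4, with 478 and 177 cells, was a further site of Il1r1, at 73.2 and 145 CPM.

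Over the 9 classes, 21 of the 82 pairs of member and class with at least 30 UMIs were past 1.5-fold, 18 higher and 3 lower in KPC-shZEB1, against 16.8% of all 105196 pairs of gene and class (12.2% higher and 4.62% lower). 12 of the 21 had a level whose interval reached background RNA in at least 1 library. 4 of the 21 stood above background in both libraries and were past 1.5-fold in every alternative run: Il1r2 in dendritic-like cells, Il18r1 in NK-like cells, and Il18r1 and Il1rl1 in fibroblast-like cells. All of these are receptors. The equal mix of clusters was not run for dendritic-like and NK-like cells, and in each of these classes a cluster described above was within 1.5-fold.

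**Figure D5:**
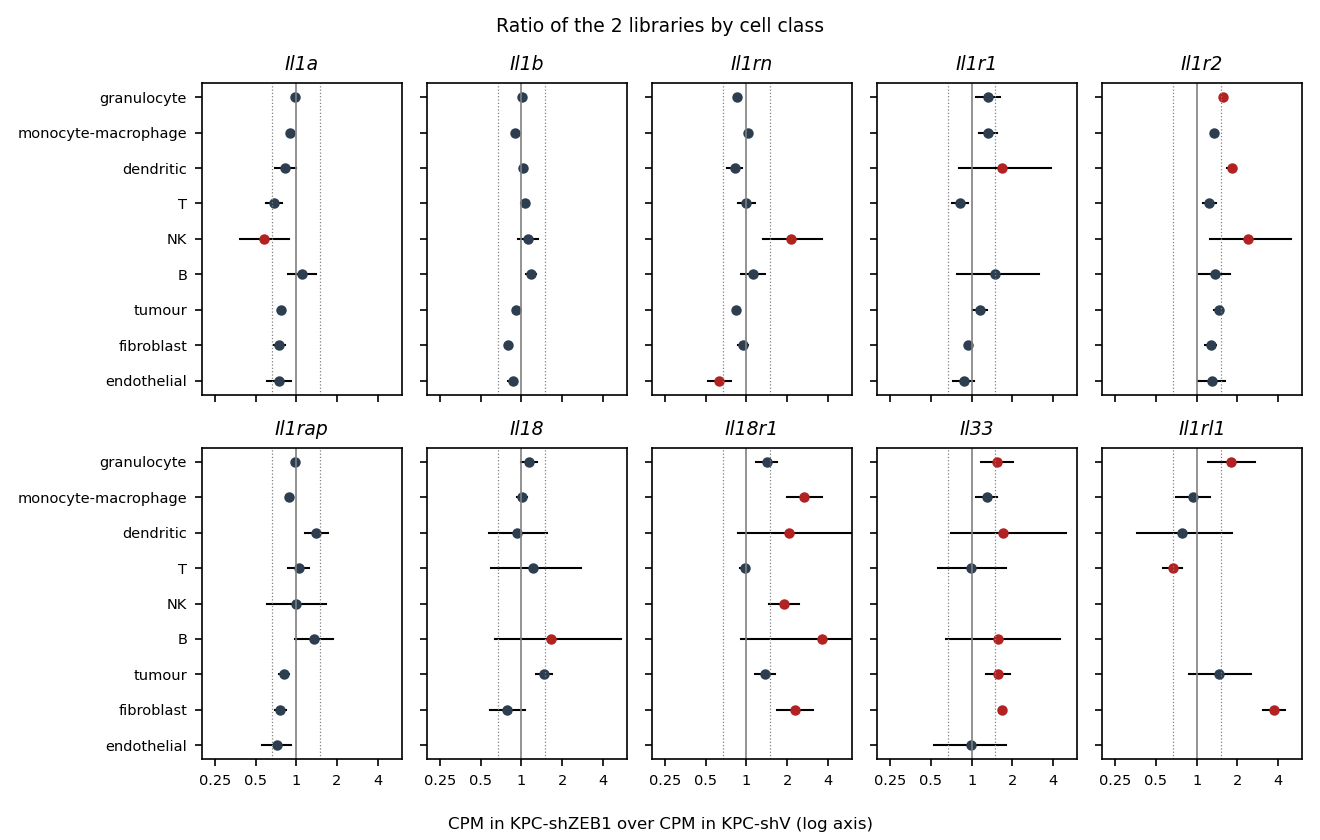
Ratio of CPM in KPC-shZEB1 over KPC-shV (log axis) for each gene (panel) in each class with at least 30 UMIs over both libraries, with bars for the 95% counting interval, dotted lines at 1.5-fold and red points past it. The Il1b points sit between 0.80 and 1.18, and the widest ratio is Il1rl1 in fibroblast-like cells (3.72).

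The other genes of the pathway were followed in 5 lists. The other family members were few: Il1f9 (interleukin-36 gamma) was at 485 and 328 CPM in granulocyte-like cells (0.68). Of the 7 genes tested there 2 were past 1.5-fold, both higher, near the 24.0% of all genes that were higher. They were Il18bp, the interleukin-18 binding protein, at 22.2 and 36.4 CPM, and Sigirr at 2.15 and 3.28 CPM (interval of the ratio 0.99 to 2.34). In fibroblast-like cells 2 of 6 were higher and 2 lower, against 7.04% and 6.32% of all genes. Among those lower was Il1rapl1 at 42.2 and 18.2 CPM. Il1f9 was past 1.5-fold and lower in 6 other classes, at 16.4 to 24.7 CPM in KPC-shV and 7.70 to 9.94 CPM in KPC-shZEB1. These levels were far under those of granulocyte-like cells, and the part of background RNA in them was not tested. Of the 12 genes of receptor-proximal signalling, from Myd88 to Ikbkb, none was past 1.5-fold in granulocyte-like, monocyte-macrophage-like, T-like, tumour-like, fibroblast-like or endothelial-like cells. In dendritic-like cells 2 of 11 tested were higher, against 11.7% of all genes. They were Tollip (interval of the ratio 1.05 to 3.71) and Tab3 (0.84 to 2.89, which holds 1). In NK-like cells 1 of 8 tested was higher, against 12.5% of all genes. This was Irak4 (19.1 and 41.7 CPM), from 7 and 43 UMIs, with an interval that held 1 (0.97 to 5.75). In B-like cells Tollip was higher (0.93 to 3.14, which holds 1) and Irak4 lower (0.44 to 0.86), against 13.4% and 3.91% of all genes. Irak2 was at 1208 and 1404 CPM in granulocyte-like cells. Of the 7 NF-kB components and feedback genes, 2 were past 1.5-fold in NK-like cells, Nfkb1 at 1396 and 2167 CPM (1.55) and Nfkbiz at 319.6 and 487 CPM (1.52), and none in the other 8 classes. Both were higher, against 12.5% of all genes in NK-like cells.

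Of the 8 genes of precursor processing and release, 1 was past 1.5-fold in granulocyte-like cells, where 24.0% of all genes were higher. This was Casp1, which encodes the protease that cuts both precursors, at 20.1 and 31.7 CPM (1.58). In tumour-like cells 2 of the 8 were higher, against 10.6% of all genes. They were Casp1 at 16.4 and 25.3 CPM (1.54) and Pycard, the inflammasome adaptor, at 17.5 and 26.7 CPM (1.52). Pycard was also the 1 of 8 higher in fibroblast-like cells, at 42.8 and 66.0 CPM (1.54), against 7.04% of all genes. Nlrp3, the inflammasome sensor, was at 2699 and 2905 CPM in granulocyte-like cells (1.08) and at 928 and 898 CPM in monocyte-macrophage-like cells (0.97). In endothelial-like cells 2 of 8 were lower and 1 higher, against 7.24% and 10.6% of all genes. Nlrp3 was lower, at 146 and 92.2 CPM (0.63, 0.53 to 0.76). Gsdme, a pore-forming gasdermin, was lower at 9.96 and 4.42 CPM, from 28 and 8 UMIs (0.44, 0.17 to 0.999). The Casp1 ratio of 1.59 came from 38 and 39 UMIs, and its interval held 1 (0.99 to 2.56). The 8 granulocyte markers summed to 1702 and 604 CPM in these cells, and their part in those ratios was not tested. In B-like cells 1 of 8 was higher, Pycard (1.51), against 13.4% of all genes.

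Among the 13 genes known to respond to interleukin-1, 4 were past 1.5-fold in fibroblast-like cells. All 4 were higher in KPC-shZEB1, against 7.04% of all genes. These were Saa3, an acute-phase protein, at 1554 and 3569 CPM (2.30), Lcn2, an iron-binding protein, at 84.1 and 252 CPM (3.00), Csf3, the granulocyte colony-stimulating factor, at 24.8 and 68.5 CPM (2.76), and the neutrophil chemokine Cxcl5 at 67.7 and 179.6 CPM (2.65). The other 9 were within 1.5-fold, including Il6 at 593 and 683 CPM, Cxcl1 at 1293 and 1491 CPM and Cxcl2 at 1705 and 1209 CPM. The median of the 13 was 0.21 on the log2 scale, against -0.03 over all genes tested in the class. Such counts were not particular to this class. In B-like cells 5 of 12 tested were higher and 1 lower (median 0.55), against 13.4% and 3.91% of all genes. In T-like and dendritic-like cells 3 of 13 each were higher and none lower (medians 0.33 and 0.31). Of all genes 9.37% and 11.7% were higher there. The part of background RNA in these counts was not tested. In granulocyte-like cells 3 of 13 were past 1.5-fold (Il6, Csf3 and Mmp3, at 4.73 to 22.3 CPM), near the 24.0% of all genes that were higher there, and in monocyte-macrophage-like cells Csf3 was higher (1.62) and Lif lower (0.54). In NK-like cells 6 of the 8 responders with enough UMIs were higher, against 12.5% of all genes. They included Icam1, an adhesion molecule, at 180.3 and 313 CPM (1.74) and Ptgs2, a prostaglandin synthase, at 90.1 and 176 CPM (1.95). The 11 monocyte-macrophage markers summed to 1022 and 2149 CPM in the same NK-like cells, and their part in the count was not tested. Lower by the same size were Mmp13, a collagenase, in tumour-like cells at 42.7 and 20.4 CPM (0.48) and Cxcl2 in endothelial-like cells at 1553 and 735 CPM (0.47). Granulocyte-like cells held 34534 and 26112 CPM of Cxcl2, and granulocyte markers were also lower in the endothelial-like cells of KPC-shZEB1. The part of background RNA in the endothelial-like Cxcl2 ratio was not tested. Saa3 was past 1.5-fold in 7 of the 9 classes, but outside fibroblast-like cells its levels in them were 39.6 to 139 CPM, and the part of background RNA in those levels was not tested.

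The genes most like each member over the 18 points of 9 classes and 2 libraries were found by Pearson correlation of log2(CPM + 1), which is a description, since the points of a library share its depth and background RNA. Il1b was most like Ptafr (r = 0.996), Nlrp3 and Slc7a11, and Il1a was most like Cd14 (0.991), C5ar1 and 4930430E12Rik. Il1rn followed Atp6v0c (0.977), Cd14 and Tlr13, Il1r2 followed Cd80 (0.957), Bcl2a1c and Mcemp1, and Il1rap followed Hcar2 (0.970), Skint3 and 1700071M16Rik. Il1r1 was most like Prickle1 (0.952), Aplp1 and Rnf165 and Il33 most like Rian (0.984), Col6a3 and Pcsk5. Il18r1 was most like Sytl3 (0.975), Tigit and Trbc1, Il18 most like Oasl1 (0.935), Lgals3 and Rbm47, and Il1rl1 most like Ankrd55 (0.890), A830012C17Rik and Cdh10.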

How the data were processed

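2 tumour samples were dissociated and sequenced on the 10x Genomics platform, and the deposited values are UMI counts per gene and barcode that the authors made with Cell Ranger 7.0.1 on mm10. Whether intronic reads were counted is not given in the sources used here. Following the limits in the study's methods, barcodes under 500 genes, outside 1000 to 60000 UMIs or over 15% mitochondrial UMIs were dropped, and barcodes with a Scrublet score above 0.2 were removed (315 and 343). Cells of both libraries were clustered together without integration (scanpy 1.11.5, 3000 variable genes without the members and pathway lists, 30 components, 20 neighbours, Leiden resolution 1 with leidenalg 0.10.2, Python 3.11.15). T-like, NK-like and ILC2-like cells were clustered again at resolution 1.5, and fibroblast-like cells at resolution 1, the latter after the data had been seen. Clusters were named from marker lists that hold no member, and the scoring rule was set after the data had been seen.

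Counts were summed per class and library and given as CPM with exact Poisson intervals. Ratios have exact conditional binomial intervals and shares of cells have Clopper-Pearson intervals (scipy 1.17.1), and 3 counts were taken as the limit of a count of 0. Background RNA in a class was the library's mean profile scaled by the class's level of S100a8, S100a9 and Retnlg, or, in granulocyte-like cells, of epithelial, collagen and B cell genes. The scaling assumes that those genes come from background RNA alone. A ratio counted as past 1.5-fold with at least 30 UMIs over both libraries. The interval script was tested on simulated data. Named were all 10 members in every class, some of the listed pathway genes past 1.5-fold in a class, and the 3 genes most like each member. Other pathway genes were named after their values had been seen. The members and lists were chosen with earlier results of these data known. Promoters came from RefSeq, which matched 10 of 10 members in 17 windows. Alternatives were other cell filters, clusterings, averages, background subtraction, scaling, fold, minimum and an equal mix of clusters.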

Additional observations from a re-analysis of the deposited data

Results flagged for a closer look

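Some signals lay in barcodes that the comparisons above did not use. In the 289 and 217 barcodes above 60000 UMIs, Il1rl1 stood at 4.75 CPM in KPC-shV and 8.02 CPM in KPC-shZEB1, a ratio of 1.69 (1.32 to 2.16). In the 315 and 343 barcodes removed as doublets, Il1r1 stood at 31.9 and 59.0 CPM, a ratio of 1.85 (1.48 to 2.33). In the same barcodes Il1a (0.62), Il1b (0.63), Il1rn (0.65), Il1rap (0.61) and Il1rl1 (0.45) were past 1.5-fold and lower.

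Acinar-like cells, with 21 cells in KPC-shV and 277 in KPC-shZEB1, were too few in KPC-shV for the comparisons. Their ratios were 6.32 for Il1a (254 and 1603 CPM), 3.56 for Il1b (4287 and 15272 CPM), 2.11 for Il1rn (533 and 1123 CPM), 5.33 for Il1r2 (317 and 1691 CPM) and 2.53 for Il1rap (228 and 578 CPM). In these cells the background scaling gave levels above the measured ones for all 5 genes in both libraries, for example 4549 and 21347 CPM for Il1b. The scaled KPC-shZEB1 value is far above the Il1b level over all kept cells of that library. The scaling thus gave no usable level of background RNA in these cells, and its part was not tested. Measured Il1b in KPC-shZEB1 was near the 17124 CPM of the granulocyte-like cells. Whether these barcodes hold granulocytes with acinar RNA was not tested.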

How the results depend on the processing

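No paired analysis was possible because each group held 1 library. The count of 21 pairs past 1.5-fold was between 20 and 24 in the alternatives that changed cells, clusters, averages, background or scaling, 14 with a minimum of 100 UMIs and 7 at a fold of 2. Without doublet removal the granulocyte-like ratios were 1.00 for Il1b, 0.862 for Il1rn and 1.52 for Il1r2, and with each library clustered alone they were 0.985, 0.875 and 1.498. Clustering alone also gave 0.979 for Il18 in tumour-like cells and turned Il1rn in NK-like cells to 0.995. The granulocyte-like Il1b ratio was 1.03 with a lower limit of 200 genes and 500 UMIs, 1.03 at resolution 2, 1.05 as a mean over cells and 0.973 relative to the median gene of the class, against which Il1rn was 0.81 and Il1r2 1.49. Background subtraction gave 0.887 for Il1b in monocyte-macrophage-like cells. For Il1rl1 in T-like cells the mean over cells gave 0.501, and leaving out the 1% of cells richest in it gave 0.534, a step that gave 1.59 for Il1r2 in granulocyte-like cells.

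An equal mix of clusters, added after seeing the data, gave 0.908 for Il1b and 1.17 for Il1r2 in granulocyte-like cells, 0.949 for Il1b and 1.01 for Il1rn in monocyte-macrophage-like cells, 0.82 for Il1rl1 and 1.05 for Il18r1 in T-like cells and 1.31 for Il33 in fibroblast-like cells. So the granulocyte-like Il1b ratio lay on either side of 1 by choice of setting, whereas Il1rn there was under 1 and Il1r2 above 1 in every alternative run. Depth limited the calls in NK-like cells, where 6 of 10 members reached 30 UMIs, in endothelial-like cells, where 7 did, and in B-like cells, where 9 did.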
